A study of Homo sapiens with 2 samples.

Results

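The 10 genes described here are the D and E cyclins, their kinases CDK4 and CDK6, and the inhibitors of these kinases, compared between HARA, an established line of squamous cell lung cancer from a human tumour, and its highly bone-metastatic derivative HARA-B4. Total RNA of each line was hybridised to 1 Affymetrix array, so each line has 1 value per probe set, and neither line was treated. The labels give no clone, passage or selection history for HARA-B4, and both lines were grown in the same serum-containing medium. Every probe set whose only gene symbol in the platform annotation was 1 of the 10 genes was taken, which gave 26 probe sets of 54675 on the array and 10 genes of 19735. They were CCND1, CCND2, CCND3, CCNE1, CCNE2, CDK4, CDK6, CDKN1B, CDKN2A and CDKN2B. With 1 array for each line there are no replicates, no residual degrees of freedom and no p-value, and every value below is a size of difference between 2 arrays.

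In the G1 phase of the cell cycle, D cyclins bind CDK4 and CDK6, and the kinases then phosphorylate the retinoblastoma protein RB, which releases E2F transcription factors. E2F induces the E cyclins, which act through CDK2 to finish the phosphorylation of RB and start S phase. The INK4 proteins p16 (CDKN2A) and p15 (CDKN2B) bind CDK4 and CDK6 and block them, while p27 (CDKN1B) binds cyclin and kinase complexes, above all those of CDK2. In squamous lung cancer this switch is often altered, by loss or silencing of CDKN2A or by gain of CCND1.

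Signals are the linear intensities that the authors deposited, and differences are log2 HARA-B4 minus log2 HARA. A probe set was above background when its signal passed 27.2, the 95th percentile of olfactory, taste and vomeronasal receptor probe sets over both arrays, and a gene was called when it differed by at least 2-fold. The probe set of a gene with the highest mean of its 2 log2 signals, called the brightest below, represents that gene. Of the 10 genes, 9 were above background on both arrays and CCND2 on neither. None of the 9 reached 2-fold, with 0 higher and 0 lower in HARA-B4, where 3.62% of the 11486 genes above background on at least 1 array were called higher and 4.21% lower. At 1.5-fold, 4 of the 9 were higher in HARA-B4 (CCNE1, CDKN2B, CCND3 and CDK6) and 0 lower, beside 10.2% and 11.0% of all genes. CDK6 passed it barely, and with the mean of probe sets in place of the brightest 2 were left, CDK6 (0.28) and CDKN2B (0.42) being lost. In RNA of a whole culture, fewer cells that express a gene and less RNA per cell cannot be told apart.

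The differences of the 9 genes ran from -0.18 to 0.85 with a median of 0.49. Over the 10202 genes above background on both arrays the median was 0.02 and the 25th to 75th percentiles ran from -0.27 to 0.28. The value was positive in 8 of the 9 genes, beside 52.2% of all genes, but CDKN2A was near 0 and turned negative with a lowess trend removed (-0.01) or with quantile normalization (-0.05). By probe set, 18 of the 26 were above background on both arrays, 1 in HARA only and 7 on neither. Of those 18, 15 had a positive difference and 3 a negative one, and their median was 0.35, beside 50.0% of all probe sets higher and a median near 0. Probe sets of 1 gene share the array and the RNA, so they are repeat readings of the same 2 samples. Over the 4829 genes with several probe sets above background, the differences of a gene's probe sets had a within-gene SD of 0.30, and 6 of the 9 genes differed by more than that in size, as did 46.8% of all genes.

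**Figure D1:**
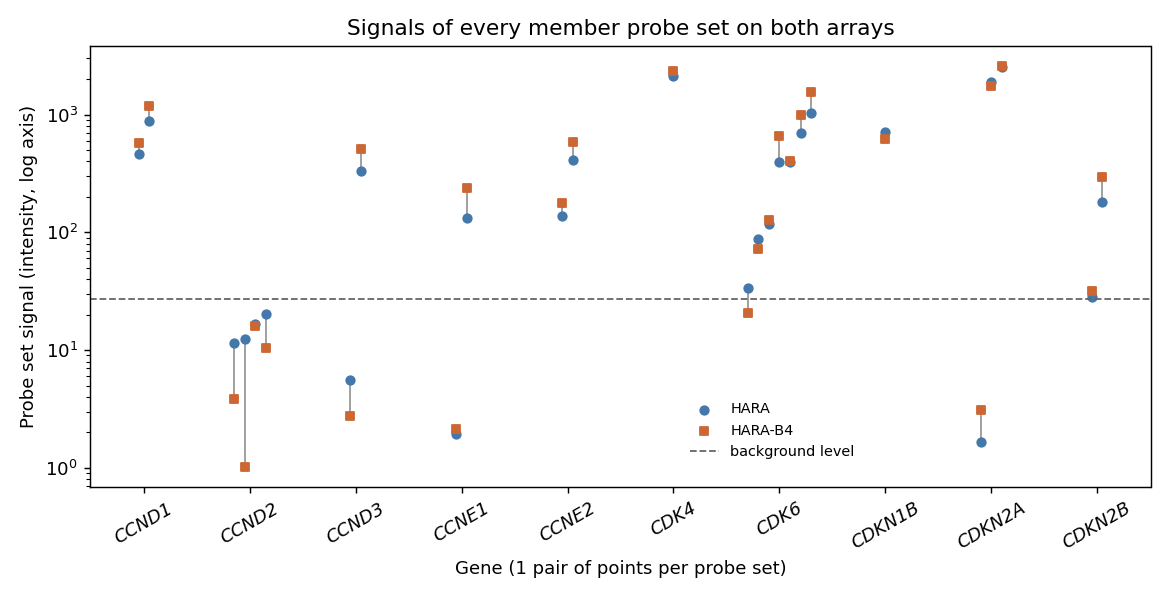
Signal of every probe set of the 10 genes (intensity, log axis) in HARA (circles) and HARA-B4 (squares), joined by a line for each probe set; the dashed line is the background level of 27.2. All 4 probe sets of CCND2 lie below the line, and the widest gap above the line is that of CCNE1, from 133 to 240.01.

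Sequences around the starts of 4 of these genes are shown because they span the range of the results: CCNE1 had the largest difference, CDKN2B and CDKN2A are neighbouring INK4 genes with unlike differences, and CDKN1B was the gene with a negative value. Each is the RefSeq window (GRCh38.p14) from 250 bases before to 50 after the gene start, printed 5′ to 3′ on the strand of the gene. Capitals mark GGGCGG and its reverse complement CCGCCC, the GC box letters known to be bound by the SP1 family, a motif chosen after the data were seen. CDKN2A has 2 entries, since p14ARF and p16 are read from separate first exons, and the start farther upstream is that of p14ARF. The windows are chr19:29811741-29812040 (+ strand) for CCNE1, chr9:22009256-22009555 (- strand) for CDKN2B, chr9:21995275-21995574 (- strand) for the p14ARF start, chr9:21974808-21975107 (- strand) for the p16 start and chr12:12717118-12717417 (+ strand) for CDKN1B.
CCNE1: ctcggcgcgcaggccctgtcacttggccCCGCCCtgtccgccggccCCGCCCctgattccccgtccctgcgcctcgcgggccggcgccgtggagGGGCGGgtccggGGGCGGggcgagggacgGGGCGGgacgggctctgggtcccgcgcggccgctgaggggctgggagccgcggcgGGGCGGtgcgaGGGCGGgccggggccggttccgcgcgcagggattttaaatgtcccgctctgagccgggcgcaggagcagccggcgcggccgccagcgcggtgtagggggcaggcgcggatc
CDKN2B: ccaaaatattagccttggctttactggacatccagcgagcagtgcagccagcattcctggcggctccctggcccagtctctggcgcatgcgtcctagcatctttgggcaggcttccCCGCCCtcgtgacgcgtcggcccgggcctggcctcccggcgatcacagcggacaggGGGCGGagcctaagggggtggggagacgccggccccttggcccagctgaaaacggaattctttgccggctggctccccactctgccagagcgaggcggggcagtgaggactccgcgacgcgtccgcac
CDKN2A, p14ARF start: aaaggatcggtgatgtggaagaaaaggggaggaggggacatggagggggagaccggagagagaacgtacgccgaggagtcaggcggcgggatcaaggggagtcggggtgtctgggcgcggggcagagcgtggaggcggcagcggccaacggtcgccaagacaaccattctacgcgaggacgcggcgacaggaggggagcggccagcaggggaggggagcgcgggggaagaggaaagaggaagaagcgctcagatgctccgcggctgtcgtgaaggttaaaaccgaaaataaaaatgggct
CDKN2A, p16 start: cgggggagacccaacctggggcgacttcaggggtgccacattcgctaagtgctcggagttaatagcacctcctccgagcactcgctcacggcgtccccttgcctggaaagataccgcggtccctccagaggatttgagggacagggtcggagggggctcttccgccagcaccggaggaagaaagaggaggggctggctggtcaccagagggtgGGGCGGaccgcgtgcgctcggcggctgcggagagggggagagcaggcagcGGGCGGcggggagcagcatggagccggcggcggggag
CDKN1B: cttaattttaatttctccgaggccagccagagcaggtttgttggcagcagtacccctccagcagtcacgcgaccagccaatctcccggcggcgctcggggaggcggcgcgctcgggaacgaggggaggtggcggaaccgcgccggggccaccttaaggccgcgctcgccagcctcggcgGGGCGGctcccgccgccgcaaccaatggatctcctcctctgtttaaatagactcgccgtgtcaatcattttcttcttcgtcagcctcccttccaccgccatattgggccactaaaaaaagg

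In these windows CCNE1 held 7 GC box matches on both strands (overlaps counted), CDKN2B 2, the p16 start 2, the p14ARF start 0 and CDKN1B 1. The RefSeq table held 11 windows for 7 of the 10 genes (CCND3, CCNE1, CDK4, CDK6, CDKN1B, CDKN2A and CDKN2B), and 8 of the 11 had at least 1 match, beside 45.0% of all 35116 windows of the same length. The GC share of the 11 windows ran from 60.3% to 81.0%, the highest being that of CCNE1. E2F letters were searched for as TTTCCCGC, TTTGGCGC, TTTCGCGC and TTTGCCGC on both strands. They were found in 0 of the 11 windows and in 3.31% of all windows, and their absence says only that these letters are not in these windows.

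Among the D cyclins, which link growth signals to CDK4 and CDK6, CCND1 and CCND3 were measured above background. The brightest probe set of CCND1 (208712_at) gave 874 for HARA and 1173 for HARA-B4, which is 0.42 on the log2 scale. Its second probe set (208711_s_at) was at 462 in HARA against 577 in HARA-B4, a difference of 0.32. Both CCND1 probe sets thus stood higher on the HARA-B4 array, and the gap between their differences was smaller than the within-gene SD. In all, 15.6% of genes above background on both arrays had a positive difference at least as large as that of CCND1.

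CCND3, the D cyclin best known from lymphoid cells but also made in epithelia, gave 332 for HARA and 510.1 for HARA-B4 (201700_at), a difference of 0.62. A difference at least that large was found in 8.62% of genes. Its other probe set (1562028_at) was below background on both arrays, at 5.62 and 2.73, so the value rests on 1 probe set. For CCND2, the 4 probe sets had signals of 11.4 to 20.4 in HARA and of 1.02 to 15.9 in HARA-B4. All 4 lay below background on both arrays, so no fold is given for CCND2, and the 2 lines cannot be ordered for it.

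Both E cyclins, the partners of CDK2 at the entry to S phase, had positive differences. CCNE1 was at 133 in HARA against 240.01 in HARA-B4 (213523_at), a difference of 0.85, which is 1.80-fold. This was the largest value of the 9 genes, and 4.73% of all genes had a positive difference at least as large. The other CCNE1 probe set (242105_at) was below background on both arrays, at 1.94 and 2.12, so the largest difference among the 9 genes has no second reading.

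CCNE2 had 2 probe sets above background. The brightest (205034_at) gave 412 for HARA and 579 for HARA-B4, a difference of 0.49, and the second (211814_s_at) at 136 and 177, a difference of 0.38. The 2 readings of CCNE2 had the same sign and differed from each other by less than the within-gene SD. Thus all 4 cyclins above background had higher signals on the HARA-B4 array, each by less than 2-fold.

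**Figure D2:**
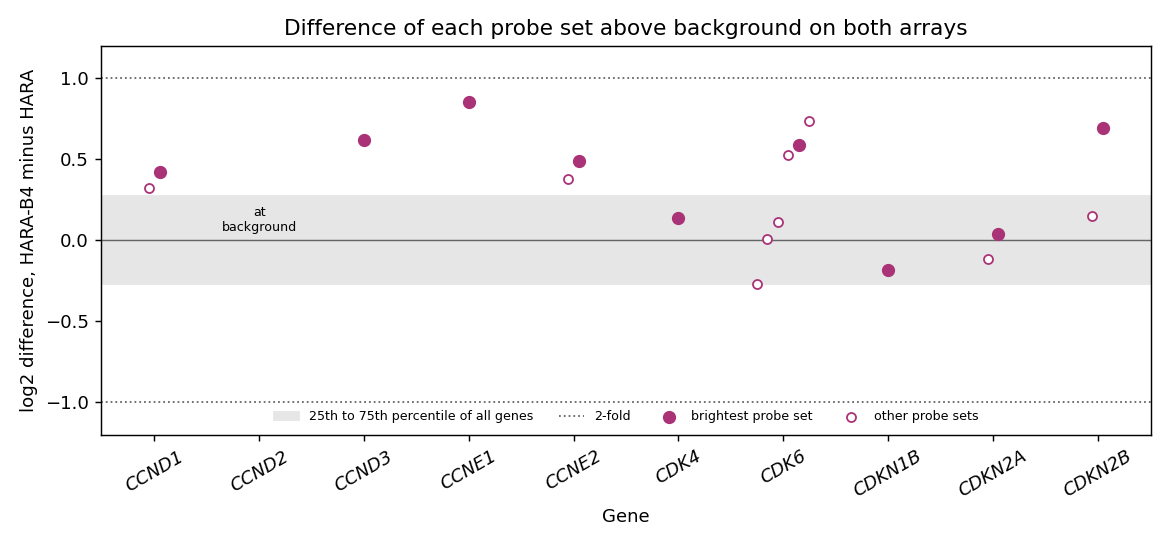
Log2 difference (HARA-B4 minus HARA) of each of the 18 probe sets above background on both arrays, by gene, with the brightest probe set of each gene filled; the grey band is the 25th to 75th percentile of all genes (-0.27 to 0.28) and the dotted lines are 2-fold. The cyclins lie above the band, CDK4, CDKN1B and CDKN2A inside it, and the probe sets of CDK6 and CDKN2B spread from inside to above it.

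CDK4, one of the catalytic partners of the D cyclins, was read by 1 probe set (202246_s_at) at 2114 in HARA against 2331 in HARA-B4, a difference of 0.14. That value is inside the middle range of all genes, and 37.3% of genes had a positive difference at least as large. CDK6, the other partner, had 7 probe sets, of which 6 were above background on both arrays.

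The brightest CDK6 probe set (224847_at) was at 1033 in HARA against 1554 in HARA-B4, a difference of 0.59. A pair of others went the same way, 224848_at from 395 in HARA to 656 in HARA-B4 (0.73) and 224851_at from 692 to 995 (0.52). The remaining 3 did not show that gap: 243000_at was at 398 and 401 (0.01), 235287_at at 118 and 128 (0.11) and 207143_at at 87.3 and 72.5 (-0.27). The CDK6 readings therefore formed no single value. Their mean was 0.28 with an SD of 0.39 over 6 probe sets, and the SD was larger than the within-gene SD of 0.30 over all genes. The seventh, 231198_at, was above background in HARA only, at 33.4 against 20.6. Where each probe set lies in the CDK6 transcripts was not analysed here, and the difference of CDK6 depends on the probe set read.

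The inhibitors also parted. CDKN1B, which encodes p27, was at 706 in HARA against 622 in HARA-B4 (209112_at), a difference of -0.18. It was the gene with the lowest difference of the 9, and 30.8% of all genes had a negative value at least as large in size. No second probe set of CDKN1B was named in the annotation.

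CDKN2A, which encodes p16 and, in another reading frame, p14ARF, had high signals on both arrays. Its brightest probe set (209644_x_at) gave 2519 for HARA and 2584 for HARA-B4, a difference of 0.04, and 207039_at was at 1898 and 1749.9, a difference of -0.12. These readings had opposite signs and both were close to 0, so no direction is given for CDKN2A. The third (211156_at) was below background on both arrays, at 1.67 and 3.09. The signals show CDKN2A transcript well above background in both lines, and p16 and p14ARF messages were not told apart here.

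CDKN2B, the INK4 gene next to CDKN2A and a known target of TGF-beta signalling, was at 181 in HARA against 293 in HARA-B4 by its brightest probe set (236313_at), a difference of 0.69. A positive difference at least as large was found in 7.12% of genes. Its other probe set (207530_s_at) was barely above background, at 28.4 and 31.5, with a difference of 0.15. The sign was the same in both, but the size of the CDKN2B difference depends on the probe set.

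**Figure D3:**
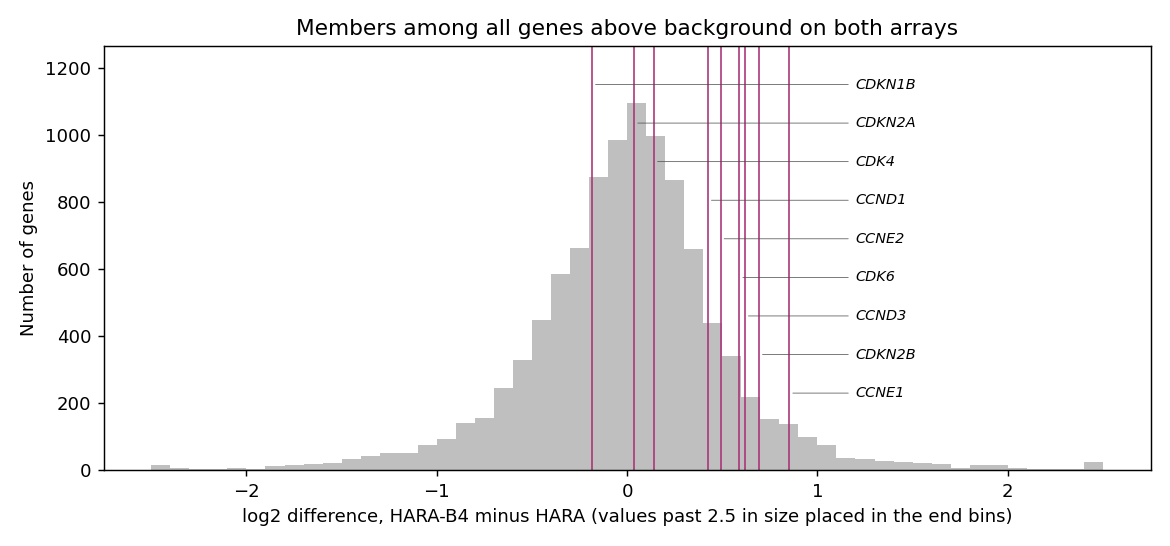
Histogram of the log2 difference (HARA-B4 minus HARA) of the 10202 genes above background on both arrays (bins of equal width, vertical axis number of genes), with a line at the value of each of the 9 genes above background. CDKN1B, CDKN2A and CDK4 fall in the centre and the other 6, from CCND1 at 0.42 to CCNE1 at 0.85, lie on the right shoulder, short of 2-fold.

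Genes that act with the 10 were read from 8 lists taken from general knowledge, with 98 different genes named on the array and 96 above background on at least 1 array. Of these, 1 was higher by at least 2-fold and 3 were lower, beside the 3.62% and 4.21% of all genes given above, and the median of those above background on both arrays was 0.04. The called genes were CDKN1A, CDKN3, FBXO4 and EZH2.

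Of the other CDK inhibitors, 4 were named on the array and all were above background on at least 1 array. CDKN1A, which encodes p21, was at 123 in HARA against 387 in HARA-B4, a difference of 1.66, the only probe set named for it. CDKN3, a phosphatase that removes the activating phosphate of CDK2, was at 2712 and 1073, a difference of -1.34, and its other probe set differed by -1.40. CDKN1C (p57) and CDKN2D (p19) were just above background in HARA-B4 only, at 28.1 and 30.3, with lower bounds of 1.03-fold and 1.12-fold. Side by side, CDKN1A was at 1.66, CDKN2B at 0.69, CDKN2A at 0.04, CDKN1B at -0.18 and CDKN3 at -1.34. Of these, only the phosphatase CDKN3 lay below the 25th percentile of all genes (-0.27).

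Among 8 other G1 and S phase cyclins, kinases and activators 0 reached 2-fold, with a median of -0.31 and 2 of 7 positive. CDK2, the kinase of the E cyclins, was at 1089 in HARA against 902 in HARA-B4 (-0.27), and its cyclin A partner CCNA2 at 1337 and 997 (-0.42). Both had negative differences where CCNE1 and CCNE2 had positive ones, and a second probe set of each gave -0.27 for CDK2 and -0.44 for CCNA2. CDK7 and CCNH, which form the CDK-activating kinase with MNAT1, differed by 0.48 and 0.38, while MNAT1 differed by -0.55; these 3 were named after their values were seen.

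All 18 genes of the RB family, the E2F and DP factors and the DREAM complex were above background on both arrays and 0 reached 2-fold, with a median of 0.02. TFDP1, the DP partner of most E2F factors, was at 1695 in HARA against 1676 in HARA-B4 (-0.02), with other probe sets from -0.53 to 0.33. The repressor E2F7 was at 787 and 808 (0.04), with a second probe set at 0.34. RB1 and TFDP2 are added after their values were seen. RB1, the main substrate of CDK4 and CDK6, was at 654 and 751 (0.20) with a second probe set at -0.33, so its transcript was present in both lines and no direction is given. TFDP2 had the largest value of the list, 0.86, but 1 of its 4 probe sets gave 0.05. RBBP4, added in the same way, differed by 0.36 by its brightest probe set. Its 6 probe sets ran from -1.11 to 0.36, so no direction is given for it.

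In the list of turnover factors for G1 cyclins and p27, 16 of 17 genes were above background, 0 were higher and 1 lower by at least 2-fold, with a median of -0.02. The lower one was FBXO4, an F-box protein reported to mark cyclin D1 for degradation, at 251 in HARA against 108 in HARA-B4 (-1.21). Only 1 of the 3 FBXO4 probe sets was above background on both arrays, so this value rests on 1 reading. SKP2, the F-box protein that marks p27 for degradation, came close to 2-fold at 1560.3 and 812 (-0.94), and its 3 probe sets ran from -0.94 to -0.66; it is named after its value was seen. Other members of the list, added in the same way, went both ways. CKS1B, the cofactor of SKP2, differed by 0.34 and UBAC1, a subunit of another p27 ligase, by 0.72. CUL1 differed by -0.51 and RNF123 by -0.49, and 8 of the 16 genes had a positive value. CDKN1B itself differed by -0.18.

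Of 17 measured regulators of transcription of the D cyclins, p27 and the INK4 genes above background, EZH2 was lower (-1.05) and 0 were higher, with a median of 0.16. Of the 15 above background on both arrays, 9 had a positive value. JUN, named after its value was seen, differed by 0.51, and its 4 probe sets ran from 0.25 to 1.13. FOXO1, named in the same way, was above background in HARA-B4 only, with a lower bound of 1.90-fold. EZH2, the methyltransferase of the Polycomb complex that is known to repress the CDKN2A and CDKN2B locus, was at 791 in HARA against 383 in HARA-B4 by 1 probe set. In the same arrays CDKN2A differed by 0.04 and CDKN2B by 0.69. How these values relate was not tested.

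The E2F targets of S phase entry and the markers of G2 and mitosis act downstream of this switch. Of 21 E2F targets 0 reached 2-fold, with a median of 0.06, 12 positive and values from -0.65 to 0.56. RRM2, a subunit of ribonucleotide reductase, was at 3381 in HARA against 4280.3 in HARA-B4 (0.34), and PCNA, the sliding clamp of DNA polymerases, at 3823 and 3394 (-0.17). Of 8 markers of G2 and mitosis 0 reached 2-fold, with a median of 0.15 and 7 positive, beside 52.2% of all genes. CDK1 was at 3416 and 3793 (0.15) and CCNB1 at 1987 and 2552 (0.36). Probe sets of CDK1 ran from -0.14 to 0.16, of MKI67 from -0.05 to 0.33 and of TOP2A from -0.09 to 0.07. The sign of each of these genes thus depended on the probe set. The medians of these lists were closer to that of all genes than the 0.49 of the G1 genes, a comparison without a test. In 4 genes of the ARF and MDM2 axis 0 reached 2-fold (median -0.17), with USP7, a deubiquitinase of MDM2, at 0.30 and TP53BP1, a DNA damage response protein, at 0.01. MDM2 (-0.38) and MDM4 (-0.35), named after their values were seen, had negative values.

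**Figure D4:**
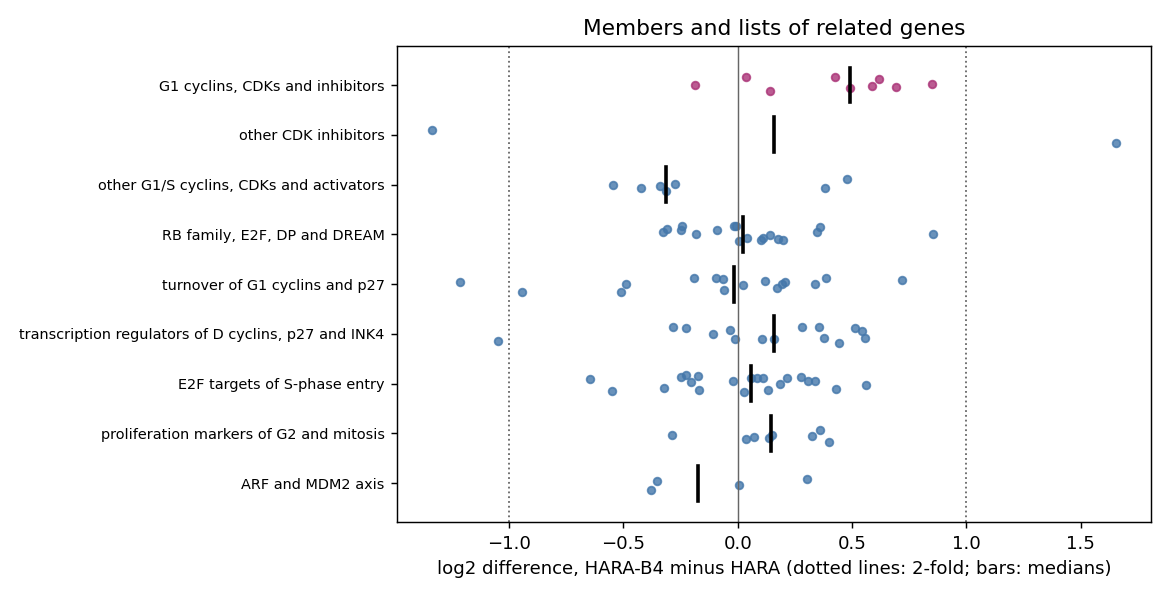
Log2 difference (HARA-B4 minus HARA) of each gene above background on both arrays, for the G1 cyclins, CDKs and inhibitors (top row) and 8 lists of related genes, with a bar at each median and dotted lines at 2-fold. The top row has a median of 0.49, the other medians run from -0.31 to 0.16, and 4 genes outside the top row lie past 2-fold.

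The 5 nearest protein-coding genes on each side of each gene, in RefSeq order, were read in the same way, to set each difference beside those of the genes around it. Around CCNE1 on chromosome 19, the 6 neighbours above background on both arrays had a median of 0.08 and values from -0.65 to 0.30, all under the 0.85 of CCNE1. Around CCNE2 on chromosome 8, 8 neighbours had a median of -0.02, and 1 of them, PLEKHF2, exceeded CCNE2 with 0.77. Around CCND3 on chromosome 6, 4 neighbours had a median of 0.36 and values from -0.05 to 0.42. The neighbours of CCND3 thus had mostly positive values themselves, and those of the E cyclin genes centred near 0.

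Around CCND1 on chromosome 11, 3 neighbours were above background on both arrays. MYEOV, the nearest on 1 side, was higher in HARA-B4 (31.1 in HARA, 116 in HARA-B4, 1.90), but barely above background in HARA. LTO1, on the other side, differed by 0.68 and TPCN2 by -0.14. Around CDK6 on chromosome 7, the adjacent interferon-responsive gene SAMD9 was higher (1.83), while the other 3 ran from -0.43 to 0.06. Around CDK4 on chromosome 12, 8 neighbours had a median of -0.17, with B4GALNT1 lower (-1.04). Around CDKN1B, also on chromosome 12, GPR19 (1.28) and GPRC5A (1.88) were higher, and the median of 7 was 0.28 while CDKN1B stood at -0.18. The HARA signal of GPR19, 35.2, was close to background. Around CCND2, on the same chromosome, 8 neighbours were above background and 0 reached 2-fold, with a median of 0.23.

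CDKN2A and CDKN2B lie next to each other on chromosome 9 and share most neighbours. MTAP, the gene on the other side of CDKN2A and often lost with it in tumours, was at 295 in HARA against 523 in HARA-B4 (0.83). TUSC1 differed by -0.05 and CAAP1, beside CDKN2B only, by 0.09, and the interferon genes IFNA1, IFNA2, IFNA8 and IFNE as well as DMRTA1 and ELAVL2 were below background. In chromosome order the values by the brightest probe sets were 0.83 for MTAP, 0.04 for CDKN2A and 0.69 for CDKN2B. By these readings the gene between had the smallest difference, but the other CDKN2B probe set gave 0.15. Signals of CDKN2A and MTAP were above background on both arrays, so transcripts of both genes were found in each line.

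**Figure D5:**
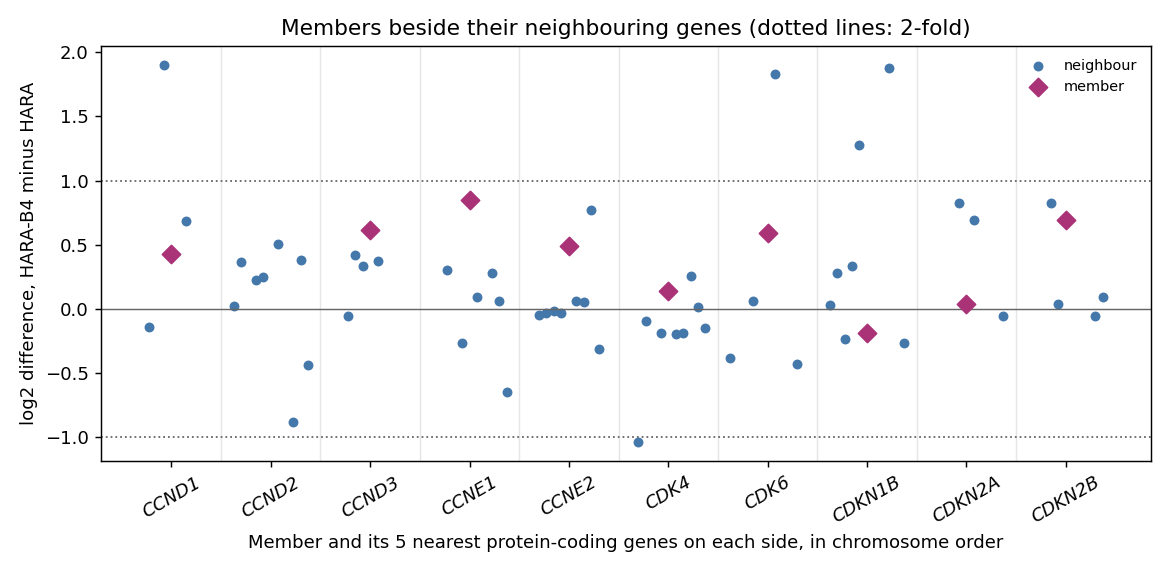
Log2 difference (HARA-B4 minus HARA) of each of the 10 genes (diamonds, where above background on both arrays) and of those of its 5 nearest protein-coding genes on each side that were above background on both arrays (circles, in chromosome order); dotted lines mark 2-fold. CCNE1 at 0.85 lies above all of its neighbours, which reach 0.30 at most, and CDKN1B at -0.18 lies below most of its own.

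The arrays had similar overall levels, with 42.0% of probe sets above background in HARA and 40.8% in HARA-B4. Of 8 squamous markers listed, 5 were analysed (KRT5, KRT14, DSG3, SOX2 and PKP1), and all 5 were above background on both arrays. KRT6A, KRT17 and TP63 were not analysed here. PKP1 was higher in HARA-B4 (191 in HARA, 672 in HARA-B4), and KRT14 differed by 0.90, SOX2 by 0.69, KRT5 by -0.07 and DSG3 by -0.50. The 3 SOX2 probe sets above background on both arrays ran from -0.04 to 0.69. Of the markers of other cells, 0 of 3 of osteoblasts and osteoclasts, 1 of 5 of leukocytes, 1 of 4 of endothelium and 2 of 6 of fibroblasts were above background on at least 1 array, and COL1A2, COL3A1, DCN and LUM were below it on both. Of 4 markers of alveolar and glandular lung, 3 were above background on at least 1 array, with NKX2-1 at 58.6 in HARA against 41.9 in HARA-B4 (-0.48) and SFTPB at 43.7 and 56.1 (0.36). The summed signal of the fibroblast markers was 104 in HARA against 223 in HARA-B4, where FAP alone gave 155 of the sum. Of its members above background, FAP was higher in HARA-B4 (1.76 in HARA, 155 in HARA-B4) and THY1 lower (63.8 and 23.8), and their part in the differences above was not tested.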

How the data were processed

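Probe set intensities on a linear scale were used as the authors deposited them, made with Affymetrix Expression Console per the submitters' processing notes; of its version, summary algorithm, scaling and detection calls nothing is stated in the labels. The mean signal without the outer 2% at each end came to 115.6 for HARA and 116.0 for HARA-B4, and no further scaling was applied. The number of arrays, 1 for each line, limits the precision.

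Log2 values were taken with no pseudocount. Of 41097 probe sets with 1 gene symbol in the platform annotation, 41043 matched the RefSeq table of GRCh38.p14 by Entrez ID and were used, 1801 had several symbols and 11777 none. Background was set from 163 sensory receptor probe sets. Where a single array was above background, the other value was set to that level, and the fold is a lower bound. All 10 genes were described with every probe set; in each list, up to 4 members past 2-fold were named, or the 2 brightest where none was, and neighbours past 2-fold were named. With 2 arrays no likeness of pattern to other genes can be measured. The genes and lists were chosen with earlier results of these data known. Some list genes (such as CDK3, CDKN2C, BMI1 and RNF2) were not analysed here.

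Alternatives were other background levels, median subtraction, quantile normalization, a lowess trend, log2(signal + 16), the mean of probe sets, removal of _x_at and _s_at probe sets, and folds of 1.5 and 3. Python 3.11.15, pandas 2.3.3, numpy 2.4.6 and statsmodels 0.14.6 were used, and the procedure was tested on simulated data. The differences added in that simulation were larger than any found above background in the G1 genes, so sizes like theirs were not covered.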

Additional observations from a re-analysis of the deposited data

How the results depend on the processing

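Every alternative gave 0 members lower and, except the lower fold, 0 higher; at 1.5-fold 4 members were higher. That count, whose alternatives were added after seeing the data, was 3 with quantile normalization, the lowess trend or log2(signal + 16), each without CDK6, and 2 with the mean of probe sets. The median of the members was 0.49 and ran from 0.37 (mean of probe sets) to 0.54 (without _x_at and _s_at probe sets, 8 genes), while the median of all genes ran from 0.00 to 0.03. The number of members with a positive value, 8 of 9, was 7 under the lowess trend, quantile normalization and the mean of probe sets, and 6 of 8 without _x_at and _s_at probe sets, each time with CDKN2A negative (to -0.12); CDK4 had no probe set left in the last. CDK6 was 0.28 by the mean of its probe sets, which includes those near 0, and CDKN2B 0.42. CCNE1 ran from 0.78 to 0.89. In the related lists, 1 gene higher became 4 at 1.5-fold, 2 with the background at the 90th percentile and 0 without _x_at and _s_at probe sets, since CDKN1A has no other probe set; 3 lower became 5 at 1.5-fold, 0 at 3-fold and 2 without _x_at and _s_at probe sets, where EZH2, read by an _s_at probe set alone, was lost. No paired analysis was possible because each line has 1 array, and no replicate could be left out.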
